A study of Mus musculus with 41 samples.

Results

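The growth factors and receptors of blood cells studied here are 10 genes, taken as every spot of the mRNA arrays whose gene name equals Kitl, Kit, Csf1, Csf1r, Csf2, Csf3, Csf3r, Flt3, Flt3l or Il7r. All 10 were found among the 27962 gene names of the array, with 15 of its 41174 probes and 51 of its 43379 spots other than controls. The probes of Kit, Csf1 and Csf2 and 1 of the 2 probes of Kitl are each printed at 10 spots. The other probes have 1 spot each. Of the genes, 5 encode secreted or surface-bound factors and 5 encode receptors.

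Adult female C57BL/6 mice, given as C57BL/6BomTac in the methods of the study, inhaled surface-coated nanoTiO2, titanium dioxide particles of nanometer size, at 40 mg/m3 per the labels, or filtered air. Both groups were treated for 1 hr per day on 11 days and were killed 5 days after the last exposure. The study asked how inhaled particles alter gene expression in lung and liver. Lung RNA came from 7 exposed and 6 control mice and liver RNA from 7 exposed and 8 control mice, with 1 mouse on each array. Both tissues were measured in 6 exposed and 6 control mice. All of these mice, controls included, had been time-mated and had not conceived, and the labels give their age only as equivalent to GD4, a day of gestation. Pieces of whole organ were used, so that fewer cells of a type and less RNA per cell cannot be told apart.

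On every array the RNA of the mouse carried the dye Cy5. A reference RNA pooled from 11 mouse cell lines carried Cy3 and was shared by all arrays. There was no dye swap. Values are normalized log2 ratios of mouse over reference, and a difference of 1 between groups is a 2-fold difference. Log2 ratios of different probes were not compared with each other, because each is relative to the reference at its own probe. A probe was called changed at an adjusted p under 0.05, with the Benjamini-Hochberg adjustment over all probes fitted (limma).

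Each factor works through a receptor at the cell surface. Stem cell factor, the product of Kitl, binds Kit on mast cells and blood progenitors. The products of Csf1, Csf2 and Csf3 are the colony-stimulating factors M-CSF, GM-CSF and G-CSF, which act on macrophages, on macrophages and granulocytes, and on neutrophils. In the lung GM-CSF is known for the maturation of alveolar macrophages, which clear surfactant. Flt3 ligand expands dendritic cells, and the interleukin-7 receptor is needed for lymphocyte survival.

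RefSeq (build GRCm38.p6) gives a promoter window for 8 of the 10 genes. The 250 bases before the annotated start are shown for Csf2, the gene that changed in the lung, and for Kitl and Csf1, the factors with the next lowest p there, so that the stretches can be compared. Capitals mark matches on either strand to a motif. The motif searched for AP-1 was TGANTCA, where N is any base. For the core of NFAT sites it was GGAAA, and the TATA box was searched as TATAAA. No match to one of them overlapped a match to another.
Csf2, chr11:54249900-54250149, minus strand: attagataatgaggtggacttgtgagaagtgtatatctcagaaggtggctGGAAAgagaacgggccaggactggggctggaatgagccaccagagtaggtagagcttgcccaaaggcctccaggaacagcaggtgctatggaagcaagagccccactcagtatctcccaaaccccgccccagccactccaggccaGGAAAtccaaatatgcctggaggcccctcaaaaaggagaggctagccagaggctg
Kitl, chr10:100015571-100015820, plus strand: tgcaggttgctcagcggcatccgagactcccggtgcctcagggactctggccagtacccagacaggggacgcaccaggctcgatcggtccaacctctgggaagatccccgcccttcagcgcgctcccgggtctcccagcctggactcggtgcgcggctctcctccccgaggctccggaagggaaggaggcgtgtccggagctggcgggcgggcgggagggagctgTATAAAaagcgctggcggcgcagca
Csf1, chr3:107760470-107760719, minus strand: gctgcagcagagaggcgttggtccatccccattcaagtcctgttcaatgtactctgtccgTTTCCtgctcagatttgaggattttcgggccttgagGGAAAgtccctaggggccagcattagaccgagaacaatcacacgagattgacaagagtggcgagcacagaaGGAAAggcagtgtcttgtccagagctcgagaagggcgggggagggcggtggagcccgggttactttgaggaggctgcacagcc
The Csf2 window held 2 matches to GGAAA, which 55.6% of all 32851 windows hold. The Csf1 window held 3 such matches. The Kitl window held TATAAA, beginning 25 bases before the start, a motif of 12.4% of windows. None of these 3 windows held TGANTCA, which 6.75% of windows hold.

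The tissues matched their labels. All 9 lung epithelium markers that could be fitted were higher in control lung than in control liver, and all 9 liver markers were higher in liver (adjusted p under 0.05, limma). Between 61.3% and 67.5% of spots on lung arrays and between 55.1% and 70.5% on liver arrays were well above background in Cy5. Exposed mice were always placed at positions 1 or 2 and control mice at 3 or 4 of their slide, and this cannot be told apart from exposure. Of the 4 lung slides, slide 4 had 2 exposed mice and lacked controls.

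In the lung Csf2, which encodes GM-CSF, rose 1.88-fold in exposed mice, and no other gene of the group was called. The log2 ratios of Csf2 in the 7 exposed lungs were 2.01, 2.34, 2.36, 2.38, 2.39, 2.47 and 2.56, with a mean of 2.36 ± 0.17 (SD, n = 7). In the 6 control lungs they were 1.04, 1.48, 1.49, 1.51, 1.52 and 1.67, with a mean of 1.45 ± 0.21 (SD, n = 6). The groups did not overlap: the lowest exposed lung, of mouse 19, lay above the highest control lung, of mouse 34. The difference was 0.91 ± 0.10 (SE) with a 95% interval of 0.70 to 1.11 and an adjusted p of 0.00032 (limma, 41155 probes). The exact two-sided permutation p over the 1716 splits of the 13 lungs was 0.00058, the smallest this design allows. So 1 of the 15 probes was called, where 0.202% of all probes were called in either direction and 0.180% were higher. That 1 probe was also the only one of the 15 whose groups did not overlap, which held for 0.598% of all probes.

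**Figure D1:**
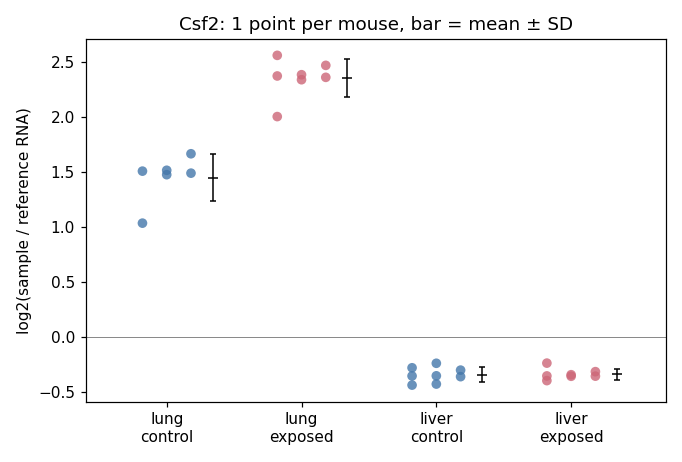
Log2 ratio of Csf2 (mouse over reference RNA, vertical axis) in each mouse by tissue and exposure, with 1 point per mouse and the mean ± SD as a bar. The 7 exposed lungs lie between 2.01 and 2.56, all above the 6 control lungs at 1.04 to 1.67, and the 15 livers lie between -0.44 and -0.24.

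The 10 spots of the Csf2 probe on an array are repeats of 1 mouse, and spots of exposed and control lungs did not overlap. In exposed mouse 19 they ran from 1.91 to 2.13, and in control mouse 34 from 1.52 to 1.79. The lowest spot of the lowest exposed lung was thus above the highest spot of the highest control lung. The SD over the spots of 1 lung array had a median of 0.10 for Csf2, against 0.21 between control mice. The probe was well above background in Cy5 on all 13 lung arrays, with median raw intensities of 332 to 562.5 in exposed and of 177.5 to 353 in control lungs. In the reference channel alone the Csf2 probe differed by 0.03 ± 0.05 (SE) between exposed and control arrays (adjusted p = 0.98, limma), and none of the 15 probes was called there in either tissue. The median raw Cy3 intensities of the Csf2 probe were dim, at 66.5 to 79.25 on lung arrays, which limits what this channel can show.

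Within slides the Csf2 difference was 1.10 on slide 1 (2 exposed, 2 control), 0.85 on slide 2 (1 exposed, 2 control) and 0.71 on slide 3 (2 exposed, 2 control). It was 0.89 with slide as a fixed block (adjusted p = 0.0034, limma) and 0.88 without slide 4 (adjusted p = 0.0053, limma). The call depended on the background correction. When spots that carried an outlier flag of the scanner software, left out here, took part in the background fit, the difference was 0.25 (adjusted p = 0.82, limma), and on 4 lung arrays the log2 ratio of Csf2 then fell to between 0.47 and 0.73. These were the arrays of exposed mice 1, 12 and 23 and of control mouse 24, for which the fitted Cy5 background mean was -120, -200, -609 and -18.7, while it lay between -7.04 and -4.45 on the other lung arrays. With median centering instead of loess the difference was 0.94 (adjusted p = 0.18, limma).

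**Figure D2:**
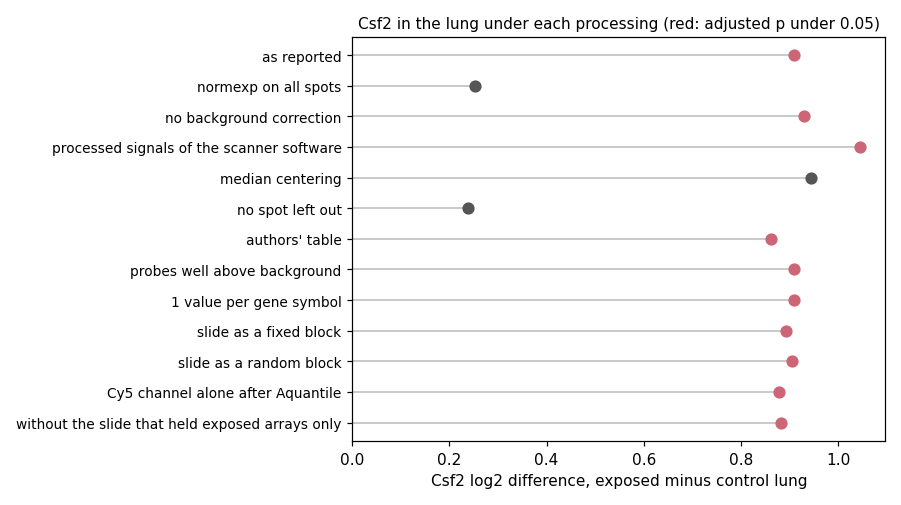
Difference of Csf2 between exposed and control lung (horizontal axis, log2) under each way of processing the arrays, 1 point each, red where the adjusted p was under 0.05. The difference lies between 0.86 and 1.04 under all settings shown except the 2 in which marked spots took part in the background fit, at 0.24 and 0.25.

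Single markers of other cells were also called in the same lungs, where 0.202% of all probes were called. Of 13 macrophage and monocyte markers, Ctsk (a protease) was higher in exposed lungs by 0.96 on the log2 scale, and Marco and Msr1 (scavenger receptors of macrophages) by 0.57 and 0.52. Siglecf, a lectin of alveolar macrophages and eosinophils, fell by 0.70. As a list the 13 did not move in 1 direction: 6 were higher in exposed lungs, and the median difference was -0.005. The mean log2 ratio over these 13 markers ran from 1.61 to 1.99 in exposed and from 1.48 to 1.92 in control lungs. Of 8 dendritic cell markers, Cd83 and Itgae were higher by 0.52 and 0.66. Among these 8, 5 were higher in exposed lungs, and the median difference was 0.088. Their list means were 1.44 to 1.60 in exposed and 1.26 to 1.45 in control lungs. None of 14 neutrophil markers, 9 mast cell and basophil markers or 12 lymphocyte markers was called in the lung, although most of these markers were measured well above background. Of 9 lung epithelium markers Foxj1, a regulator of cilia, was higher by 0.29, and none of 10 endothelial and stromal, 6 heart muscle or 6 red cell markers was called. Higher in exposed lungs were 4 of 14 neutrophil, 6 of 9 mast cell and basophil and 6 of 12 lymphocyte markers. Their median differences were -0.08, 0.02 and -0.01. For lung epithelium it was 2 of 9 and for endothelial and stromal markers 5 of 10, with medians of -0.10 and -0.003. All 6 heart muscle markers and none of the 6 red cell markers were higher, with medians of 0.35 and -0.16. The part of the cell makeup in the Csf2 difference was not tested. None of 9 liver markers was called either, but all 9 had a higher mean in exposed lungs, with list means of 0.66 to 2.70 in exposed and 0.37 to 1.15 in control lungs. Csf2 itself was not well above background on any liver array. Whether the liver markers bear on the Csf2 difference was not tested.

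The other factors differed less between exposed and control lungs, and none passed the adjusted threshold. Kitl had log2 ratios of 1.84 to 2.18 (median 2.10) in exposed and of 2.09 to 2.50 (median 2.26) in control lungs. The groups overlapped, although 3 exposed lungs lay below every control lung and none lay above the control mean. The difference was -0.23 ± 0.07 (SE), with an adjusted p of 0.36 from limma and an exact two-sided permutation p of 0.0052. It was -0.08, -0.26 and -0.41 within slides 1, 2 and 3. A second Kitl probe, shown because it lies in another part of the gene and has its own sequence, read -0.08 ± 0.08 (SE, adjusted p = 0.86 from limma).
Kitl second probe, chr10:99638154-99638213 (build mm7), plus strand: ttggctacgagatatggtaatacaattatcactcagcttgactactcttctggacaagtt
The first probe lies downstream at chr10:99661255-99661314 of the same build.

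Csf1 had log2 ratios of -1.19 to -0.92 (median -1.08) in exposed and of -1.40 to -1.09 (median -1.24) in control lungs. All 7 exposed lungs lay above the control mean and 4 above every control lung. The difference was 0.18 ± 0.06 (SE), with an adjusted p of 0.53 from limma and an exact two-sided permutation p of 0.017, and it was 0.34, 0.19 and 0.07 within slides 1, 2 and 3. Flt3l, which encodes Flt3 ligand, had log2 ratios of 0.75 to 1.01 (median 0.88) in exposed and of 0.44 to 0.93 (median 0.72) in control lungs. Here too all 7 exposed lungs lay above the control mean. The difference was 0.18 ± 0.07 (SE, adjusted p = 0.61 from limma). Csf3, which encodes G-CSF, was not well above background on any lung array, and its log2 ratios of -0.11 to 0.10 there are readings at background.

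Among the receptors none was called in the lung. Kit, with log2 ratios of 4.02 to 4.48 (median 4.17) in exposed and 3.99 to 4.36 (median 4.21) in control lungs, differed by -0.04 ± 0.08 (SE, adjusted p = 0.94 from limma), and its 95% interval ran from -0.20 to 0.12. Il7r had log2 ratios of 1.77 to 2.10 (median 1.84) in exposed and of 1.51 to 2.05 (median 1.94) in control lungs, a difference of 0.02 ± 0.08 (SE, adjusted p = 0.98 from limma). For both genes 6 of the 7 exposed lungs lay inside the control range and 1 lay above it. The other 2 probes of Il7r were not well above background on any lung array.

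The 3 probes of Csf1r, the receptor of M-CSF, did not move in 1 direction. The first had log2 ratios of 1.02 to 1.20 (median 1.12) in exposed and of 0.87 to 1.21 (median 1.03) in control lungs. Its difference was 0.07 ± 0.05 (SE), that of the second probe 0.14 ± 0.06 and that of the third -0.11 ± 0.05, with adjusted p of 0.83, 0.69 and 0.69 (limma). For the third probe 6 of the 7 exposed lungs lay below every control lung, and for the second all 7 lay above the control mean. The third probe was dim, with raw Cy5 intensities of 77 to 104.5 in exposed and 80 to 110 in control lungs. In the reference channel alone it was higher on exposed lung arrays by 0.08 ± 0.03 (SE, adjusted p = 0.98, limma). Flt3 was well above background in all 7 exposed lungs and in 3 of 6 control lungs. Its raw Cy5 intensities were dim and overlapped, at 74 to 95 in exposed and 71 to 96 in control lungs. The log2 ratios were 0.03 to 0.27 and -0.06 to 0.17, and the difference was 0.09 ± 0.05 (SE, adjusted p = 0.73 from limma).

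Csf3r, the G-CSF receptor of neutrophils, had the widest spread of the 10 over the lung arrays of a group. Its log2 ratios in the 6 control lungs were 0.60 and 0.67 on slide 1, 1.03 and 1.96 on slide 2, and 1.47 and 1.54 on slide 3. In the 7 exposed lungs its log2 ratios ran from 0.61 to 1.33 with a median of 1.05. The SD was 0.54 in control and 0.28 in exposed lungs, and the groups overlapped. The difference of -0.23 ± 0.20 (SE) was not called (adjusted p = 0.84, limma), and its 95% interval of -0.66 to 0.20 spanned 0. Within slides 1, 2 and 3 it was 0.55, -0.16 and -0.65, so that its sign changed with the slide.

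At an unadjusted p under 0.05, 4 of the 15 probes were higher in exposed lungs (Csf2, Csf1, Flt3l and the second Csf1r probe) and 2 were lower (the first Kitl probe and the third Csf1r probe). Among all probes 3.84% were higher and 3.29% lower at that threshold. The median difference was 0.02 over the 15 probes and 0.00 over all probes. The differences of Kit, Csf1r, Csf3, Flt3l and Il7r, none of them called, had the other sign under at least 1 other way of processing the arrays.

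**Figure D3:**
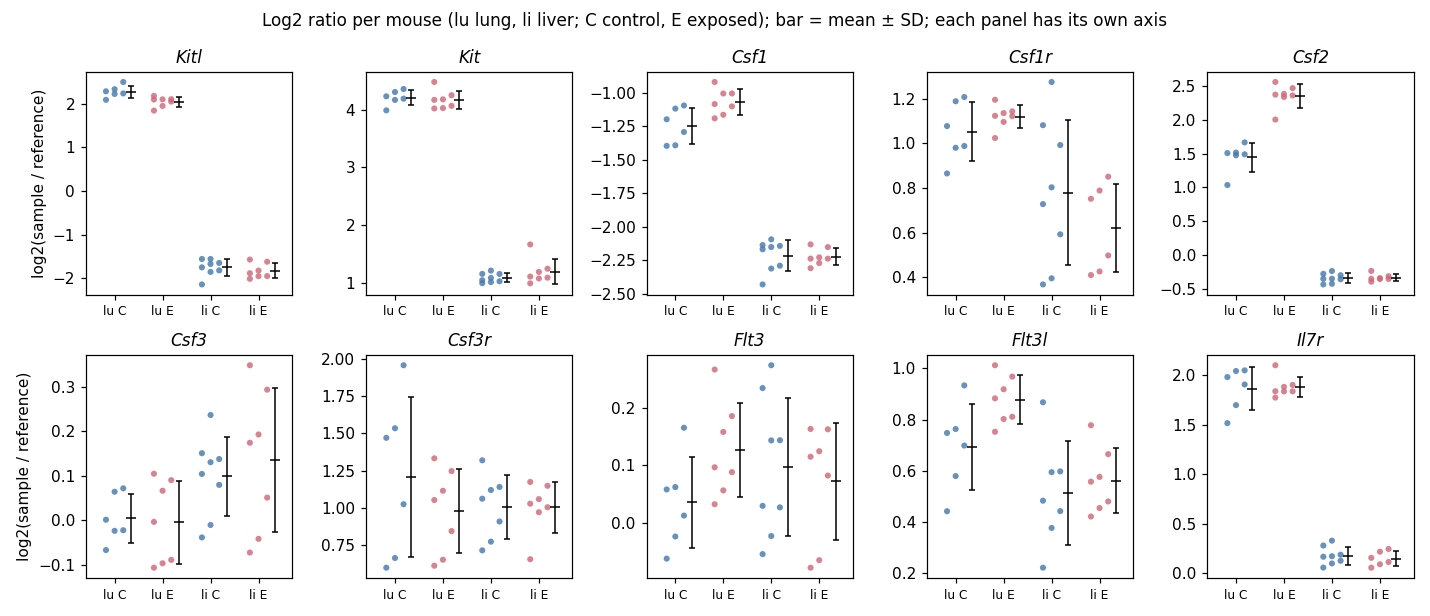
Log2 ratio (mouse over reference RNA, vertical axes, 1 scale per panel) of the probe with the highest mean signal of each of the 10 genes in control (C) and exposed (E) lungs (lu) and livers (li), with 1 point per mouse and the mean ± SD as a bar. Csf2 is the gene whose exposed and control lungs do not overlap, and Kitl, Kit, Csf1, Csf2 and Il7r separate the tissues.

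In the liver none of the 15 probes was called between 7 exposed and 8 control mice, nor was any of the 41143 probes of the array (0% called, lowest adjusted p 1.00, limma), and none of the 15 was under 0.05 unadjusted, against 2.53% of all probes. The 15 differences ran from -0.17 to 0.11. Csf2 was not well above background on any of the 15 liver arrays, with log2 ratios of -0.40 to -0.24 in exposed and -0.44 to -0.24 in control livers, so that a fold between them cannot be given. Kit differed by 0.11 ± 0.08 (SE, adjusted p = 1.00 from limma). Its log2 ratios were 0.99 to 1.66 in exposed and 0.99 to 1.21 in control livers, and the highest value was that of exposed mouse 19 alone. The first Csf1r probe, with log2 ratios of 0.41 to 0.85 in 6 exposed and 0.37 to 1.28 in 8 control livers, differed by -0.16 ± 0.14 (SE, adjusted p = 1.00 from limma). The array of exposed mouse 20 had no usable spot for it.

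**Figure D4:**
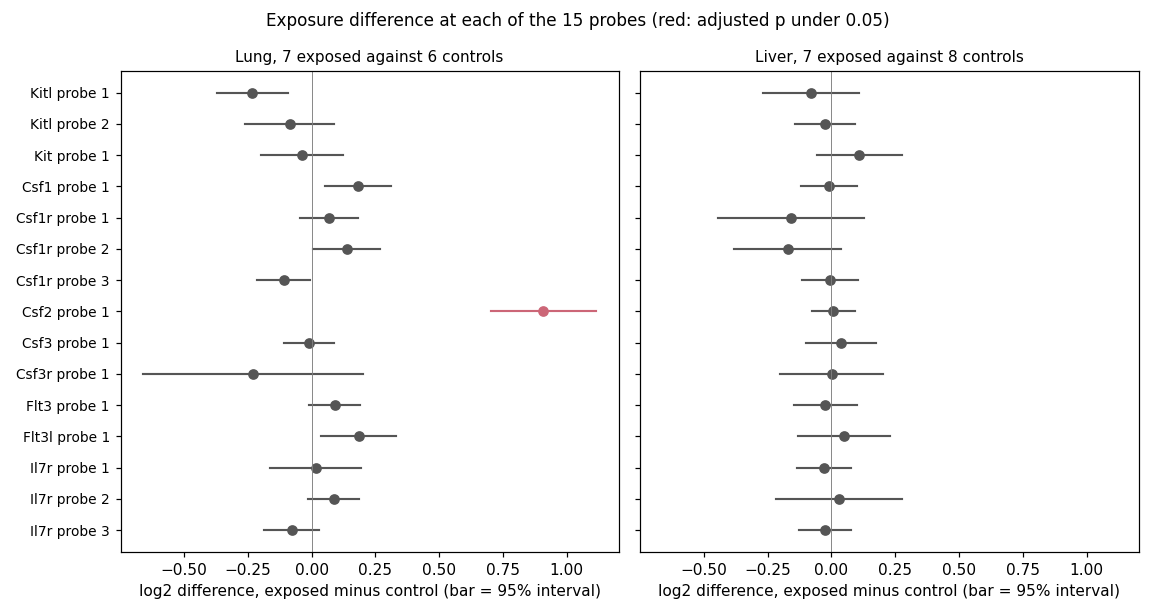
Difference in log2 ratio between exposed and control mice (horizontal axis) at each of the 15 probes in the lung (left) and the liver (right), with 95% intervals as bars and red for an adjusted p under 0.05. Only Csf2 in the lung is red, at 0.91, and all liver differences lie between -0.17 and 0.11.

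The exposure difference of Csf2 itself differed between the tissues. It was 0.91 in the lung and 0.01 ± 0.04 (SE) in the liver, and the lung difference minus the liver difference was 0.90 ± 0.10 (SE, adjusted p = 1.1e-05 over 41125 probes, limma interaction). Since the liver values lay at background, the liver difference is a difference between background readings. No other of the 15 probes was called in this test, where 0.141% of all probes were.

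Several of the genes stood at different levels in the 2 tissues of control mice. Tissue goes with slide, scan and software version, so that these cannot be told apart. Of the 15 probes 7 were higher in control lung and 1 was higher in control liver, where 30.0% of all probes were called higher in lung and 29.7% higher in liver. Kitl had a mean of 2.28 ± 0.14 (SD, n = 6) in control lung and of -1.75 ± 0.19 (SD, n = 8) in control liver, a difference of 4.03 ± 0.08 (SE) or 16.4-fold (adjusted p = 2.2e-26, limma). Exposed lungs at 2.05 ± 0.11 (SD, n = 7) and exposed livers at -1.83 ± 0.17 (SD, n = 7) kept to their tissue. On 13 of the 15 liver arrays the probe was well above background in Cy5. Its median raw Cy5 intensities in liver were dim, at 100.5 to 125. Those of Csf2, at background in liver, were 85.5 to 90.5. The 16.4-fold difference thus rests on a liver signal near background.

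Kit was at 4.21 ± 0.13 (SD, n = 6) in control lung and 1.08 ± 0.08 (SD, n = 8) in control liver, 8.72-fold higher in lung (adjusted p = 6.7e-24, limma). Csf1 was at -1.25 ± 0.13 (SD, n = 6) in control lung and -2.21 ± 0.12 (SD, n = 8) in control liver, 1.96-fold higher in lung (adjusted p = 2.7e-15, limma). For each of these 3 genes no control lung overlapped any control liver. In all, 6 of the 15 probes had groups that did not overlap, which held for 41.3% of all probes. Over the other ways of processing the arrays the difference ran from 2.42 to 5.81 for Kitl, from 1.52 to 3.26 for Kit and from 0.73 to 1.07 for Csf1, always past the threshold. Both members of the stem cell factor pair, ligand and receptor, were thus higher in lung than in liver.

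Csf2 and Il7r were well above background on every lung array and on no liver array, so that their liver values are readings at background and neither a fold nor a rank beside Kitl and Kit can be given. The log2 ratio of Csf2 was higher in control lung by 1.79 ± 0.07 (SE, adjusted p = 3.6e-19, limma) and that of Il7r by 1.68 ± 0.07 (SE, adjusted p = 9.0e-19, limma). The second Kitl probe, also at background in every liver, was higher by 0.80 ± 0.07 (SE, adjusted p = 3.2e-11, limma). With the processed signals of the scanner software the differences were 5.43 for Csf2 and 5.40 for Il7r, and with the mean over the 3 Il7r probes that of Il7r was 0.47.

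For Kitl, Kit, Csf1, Csf2 and Il7r both lung groups lay above both liver groups. Within a tissue, exposed and control mice passed the adjusted test for Csf2 in the lung only. The remaining genes gave weaker or no separation of the tissues. The first Csf1r probe was 1.21-fold higher in control lung (adjusted p = 0.032, limma), but the groups overlapped and the exact two-sided permutation p was 0.086. This call was lost with median centering (0.19, adjusted p = 0.46, limma) and with 1 value per gene symbol (0.16, adjusted p = 0.078, limma). Csf3r (difference 0.20 ± 0.17, SE), Flt3l (0.18 ± 0.08) and Flt3 (-0.06 ± 0.05) were not called between the tissues, with adjusted p of 0.31, 0.059 and 0.35 (limma). Flt3l was called with no spot left out (0.32, adjusted p = 0.039, limma) and when dim probes were filtered out (0.18, adjusted p = 0.048, limma). For Csf3r and Flt3l 7 of the 8 control livers had a usable spot. Csf3 was not well above background on any control array of either tissue, and was called lower in lung with processed signals (-0.91, adjusted p = 0.043, limma).

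The 1 probe called higher in liver was the second Il7r probe (difference -0.26 ± 0.10, SE, adjusted p = 0.023, limma), which was not well above background on any lung array. It was well above background in 4 of 8 control livers. With the mouse as a fixed block its difference was -0.18 (adjusted p = 0.12, limma), and with marked spots in the background fit -0.21 (adjusted p = 0.064, limma). In the liver it went with the slide: on the 8 arrays of slides 2 and 4 its log2 ratios were 0.36 to 0.54, all well above background, and on the 7 arrays of slides 1 and 3 they were -0.09 to 0.13, none well above background. Flt3 was well above background on the same 8 liver arrays and on no other. The split was not particular to these genes. Of all spots, 63.2% to 70.5% were well above background in Cy5 on liver slides 2 and 4, and 55.1% to 59.5% on slides 1 and 3. Each of these slides held exposed and control samples, so that the split does not follow exposure.

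The other cytokines and receptors of blood cells gave no call in the lung. Where 3.84% of all probes were higher at an unadjusted p under 0.05 (limma), 3 of 17 further cytokine genes measured were. They were the alarmin Il33 (listed as 9230117N10Rik) at 0.37, Il34 (listed as 2010004A03Rik) at 0.20 and Thpo at 0.18. Their adjusted p values were 0.16, 0.37 and 0.51 (limma). Il34 encodes the second ligand of the M-CSF receptor, and Thpo the platelet growth factor. Thpo was 20.7-fold higher in control liver than in control lung. Whether the higher means of liver markers in exposed lungs bear on its difference was not tested. Of 20 further receptor genes, 3 were higher at that threshold, Il3ra at 0.29, Il2rg at 0.20 and Csf2rb at 0.16, with adjusted p of 0.39, 0.56 and 0.57 (limma). The GM-CSF receptor consists of Csf2ra and the shared chain Csf2rb, and Csf2ra differed by 0.01 (adjusted p = 0.99, limma). Csf2rb and its near copy Csf2rb2, which differed by 0.12, may share signal.

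Signalling genes below these receptors gave no call either. Of 18 JAK-STAT genes the lowest p values were those of Jak1 at -0.18, Tyk2 at 0.14 and Jak3 at 0.16, with adjusted p of 0.70, 0.70 and 0.71 (limma). None of 10 transcription factors of myeloid cells was called, among them Irf8 at 0.12 and Cebpd at 0.22, with adjusted p of 0.74 and 0.80 (limma). The median differences of the 4 lists were 0.00, 0.06, 0.09 and 0.01, beside 0.00 over all probes. In the liver none of these genes was called.

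Among the 17796 probes well above background on all 13 lung arrays, the 5 genes whose log2 ratios followed Csf2 most closely were Noxo1 (r = 0.94), Lcn2 (0.94), Vnn1 (0.93), Ly6f (0.93) and Clec5a (0.93). Noxo1 organizes an NADPH oxidase, Lcn2 encodes a siderophore-binding protein, Vnn1 a pantetheinase and Clec5a a receptor of myeloid cells. All 5 rose in exposed lungs, by 2.99-fold, 3.26-fold, 2.58-fold, 5.01-fold and 1.65-fold. These correlations describe 13 arrays in 2 separate groups and rest largely on the gap between them: within the 7 exposed lungs r ran from 0.41 to 0.79 and within the 6 control lungs from -0.54 to 0.42.

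Over the 13 lungs each receptor was set beside markers of a cell type known to carry it, in 5 relations. Only markers well above background on at least 50% of lung arrays were used. Which cells of these lungs carry the receptors was not tested. Flt3 was dim, with raw Cy5 intensities of 71 to 96 over the lung arrays. None of the relations passed after adjustment. Flt3 and 6 dendritic cell markers had r = 0.63 and rho = 0.66 (permutation p = 0.022 and 0.016, adjusted 0.054 and 0.078), and r was 0.53 without the 2 lungs farthest from the median of the markers, 0.54 within exposed and 0.33 within control lungs. Il7r and 11 lymphocyte markers had r = 0.63 and rho = 0.49 (permutation p = 0.021 and 0.095, adjusted 0.054 and 0.16), with 0.29 without the 2 farthest lungs, -0.53 within exposed and 0.95 within control lungs, so that the relation did not hold within both groups. Kit and 5 mast cell and basophil markers had r = -0.56 and rho = -0.53 (permutation p = 0.046 and 0.067, adjusted 0.076 and 0.16). Without the 2 farthest lungs r was -0.65, and it was -0.565 within exposed and -0.59 within control lungs. Csf3r and 11 neutrophil markers had r = 0.32 and rho = 0.32, and Csf1r and 13 macrophage markers r = -0.10 and rho = -0.24, each with an adjusted permutation p of at least 0.35. These points share arrays and normalization, and single mice differ in many genes at once.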

How the data were processed

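The mRNA of 13 lungs and 15 livers was hybridized to 2-color Agilent mouse arrays, 1 array per mouse. The deposited scanner files hold a Cy5 and a Cy3 median intensity and a background intensity for each spot, without normalization, beside outlier flags. The authors also deposited a table of log2 ratios normalized by LOWESS, used here as an alternative, which correlated with the scanner log ratios at r = 0.93 to 0.99. The miRNA arrays were not used here.

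Spots with an outlier flag (2.46% to 4.72% per array) were left out, the background was corrected by normexp (offset 50), and arrays were normalized by loess with control spots at weight 0. Control spots were then dropped and the spots of a probe averaged. Groups came from the labels. The comparisons were exposed against control mice in each tissue, control lung against control liver, and the difference of both exposure effects. Each was fitted over all probes with lmFit and eBayes in limma 3.58.1 (R 4.3.3), with the Benjamini-Hochberg adjustment over all probes. Single probes also had an exact two-sided permutation test. The fits were tested on simulated data. For arrays, the number of mice limits the precision.

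The alternatives were other background corrections, median centering, all spots kept, a filter on dim probes, the authors' table, 1 value per gene symbol, the Cy5 channel alone, slide as a block, mouse as a replicate block and each array left out in turn. The fit without the lung slide that held no control array, and the reference channel without background correction, were chosen after seeing the data.

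The labels number the mice, so that 12 mice gave both tissues, and the titles of lung and liver mRNA arrays put each of them in the same group. The titles of the miRNA arrays give mice 12, 20 and 23 as controls, against exposed in the mRNA titles, and this clash was not resolved. Their deviations from the group means correlated between the tissues at -0.07 to 0.22 (4 of 12 over 0.1), and the pairing rests on the labels.

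All probes of the 10 genes are named, and the probe with the highest mean signal stands for a gene. Of each further list the genes called are to be named, or the 3 with the lowest p where fewer than 3 were called, and of the cell marker lists only those called are given. A result for 1 gene of the transcription factor list is not reported here. The genes most like Csf2 are the 5 with the highest correlation over the lung arrays. The genes and lists were chosen with earlier results of these data known.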

Additional observations from a re-analysis of the deposited data

Results flagged for a closer look

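Within each probe and group of mice, the highest and lowest values were examined for a wide gap to the rest (Dixon's 95% critical value). Of 60 groups examined 6 had such a value, and chance gives about 1 in 20. For Csf2 in the lung these were control mouse 24, at a log2 ratio of 1.04 with the nearest control at 1.48, and exposed mouse 19, at 2.01 with the nearest exposed lung at 2.34. Both are the lowest of their group. Without mouse 24 the Csf2 difference was 0.83 (adjusted p = 0.00023, limma) and without mouse 19 it was 0.97 (adjusted p = 9.9e-05, limma).

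The others were Kit in the liver of exposed mouse 19 at 1.66 (nearest 1.24), the third Csf1r probe in the lung of exposed mouse 12 at 0.20 (nearest 0.03), Csf3r in the liver of exposed mouse 1 at 0.66 (nearest 0.97) and Il7r in the lung of exposed mouse 23 at 2.10 (nearest 1.90). None of these 4 probes was called in that tissue. The exposure effect of Csf2 differed between the tissues, with a lung minus liver difference of 0.90 (adjusted p = 1.1e-05, limma), where all liver values lay at background.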

How the results depend on the processing

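The call of Csf2 in the lung was lost under 3 alternatives, so that 0 member probes were called there instead of 1. They were normexp fitted on all spots (0.25, adjusted p = 0.82, 12 of all probes called), no spot left out (0.24, adjusted p = 0.83, 15 called) and median centering (0.94, adjusted p = 0.18, 4 called), against 83 probes called as reported. Under the other 9 it kept its direction and call. With each lung array left out in turn the count stayed at 1 and Csf2 ran from 0.83 to 0.97 (highest adjusted p 0.0014). The lung minus liver count fell from 1 to 0 with normexp on all spots (Csf2 0.34, adjusted p = 0.70), with no spot left out (0.32, adjusted p = 0.70) and with processed signals (1.00, adjusted p = 0.15). The tissue count was 5 instead of 8 with 1 value per gene symbol, which leaves 10 values to call. The cause of the other losses was not tested.

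With mouse as a replicate block, random or fixed, 8 or 7 member probes were called between the tissues. The interaction count stayed at 1 (Csf2 0.90, adjusted p = 7.0e-06, or 0.92, adjusted p = 0.0035), and the second Il7r probe was the 1 call lost.

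Signs turned for differences that were not called. In the lung Kit read 0.051 with median centering, 0.030 with slide as a fixed block and 0.013 without the slide that held no control array. Csf1r read -0.087, Flt3l -0.032 and Il7r -0.51 both with normexp on all spots and with no spot left out. Il7r read -0.0030 with slide as a fixed block and -0.019 without that slide. Csf3 read 0.033 without background correction and 0.032 in the authors' table. In the liver Csf2 read -0.086 with normexp on all spots, -0.084 with no spot left out, -0.00088 without background correction, -0.0057 with median centering, -0.010 in the authors' table and -0.014 in Cy5 alone. Between tissues Csf3r read -0.23 and Flt3 0.17 with processed signals. With single arrays left out Csf3 in the lung ran from -0.027 to 0.0080, Il7r in the lung from -0.054 to 0.053 and Csf2 in the liver from -0.0095 to 0.022, and the liver count stayed at 0. Probes not well above background, as Csf2 in the liver and Csf3 in the lung, give readings at background only.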

Other observations

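Outside the comparisons, the scanner flags marked similar shares of spots in both tissues, 2.46% to 3.54% on lung arrays and 2.95% to 4.72% on liver arrays. With all spots in the background fit, the fitted Cy5 background mean was as low as -609 on lung arrays and -972 on liver arrays, and with marked spots left out it lay between -8.44 and -4.12 on all 28 arrays.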
